A study of Mus musculus with 4 samples.

Results

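The genes described here encode proteins of the lysosome and of the cytotoxic granule: 9 cathepsins, the protease legumain, 2 cystatins, 14 hydrolases and their cofactors, 7 membrane proteins, the transcription factor TFEB and the granule proteoglycan serglycin. They were listed by name for their function, 35 in all. All 35 had a row in the deposited table, which held 21146 genes. RNA had been sequenced from tumour-infiltrating T cells of C57BL/6 mice, 21 days after tumour inoculation. Libraries labelled HPK1-/- came from mice lacking Map4k1, the gene for the kinase HPK1 (written MAP4K1-/- in the design text), and wild-type libraries came from mice of the same strain. There were 2 libraries of each genotype. The labels name neither the tumour, the knockout allele, the gate used to isolate the T cells nor the age of the mice. Nor do they state that each library was a different animal. The p-values set the difference between genotypes against variation between libraries of a genotype. Some or all of that variation may therefore be technical.

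Lysosomes are acidic vesicles in which hydrolases and cathepsins break down proteins, lipids and sugars delivered by endocytosis and autophagy. In cytotoxic T cells a modified, secretory lysosome is the cytotoxic granule: perforin and granzymes are stored there on a serglycin matrix, and fusion of the granule with the cell surface exposes LAMP1. Cathepsin C removes the activation peptide of progranzymes, cystatin F (Cst7) restrains cathepsin C, and TFEB is the transcription factor best known for driving lysosomal genes. HPK1 is a kinase of blood cells that dampens T cell receptor signalling.

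Values were FPKM, fragments scaled by transcript length and library size, which allow levels to be compared between genes. Fold changes are differences of log2(FPKM + 1), with wild type subtracted from knockout, a scale that shrinks changes of genes near 0 FPKM. A gene is said to have risen or fallen where limma's two-sided moderated test gave a Benjamini-Hochberg adjusted p under 0.05 over all 11947 tested genes. Map4k1 (ENSMUSG00000037337) was at 20.6 and 26.5 FPKM in the knockout libraries, against 48.9 and 41.1 FPKM in the wild-type libraries, so transcript was lower but still present in the libraries labelled knockout (limma adjusted p = 0.0134). The call was lost when low genes were not filtered out (limma adjusted p = 0.0764). Its log2 fold change was -0.91 (SE 0.15), and between -1.09 and -0.74 with a single library left out. The steps between low values put the libraries at a scale of about 20200000 to 23300000 fragments. With 2 libraries against 2, no permutation test of a single gene can go below p = 0.333.

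Of the 35 genes, 13 fell in the knockout libraries, 2 rose and 20 did not pass. Among all tested genes 13.0% fell and 15.4% rose, 28.4% in either direction, and 43.2% had an unadjusted p under 0.05. The members' shares were 37.1% lower and 5.71% higher. Their median log2 fold change was -0.12, beside 0.04 for all tested genes. Both knockout values were under both wild-type values for 17 members and above them for 6, where 31.4% and 38.6% of all tested genes were so placed. The falls ranged from -0.32 for Ctsa to -1.98 for Ctsh on the log2 scale, and the value for Ctsh was -4.19 with a pseudocount of 0.1 and -6.00 with 0.01 in place of 1. Of the 20 members that did not pass, 13 differed by less than 0.15. All 35 passed the filter on low values, Ctsh through the wild-type libraries alone. These are bulk libraries, so fewer cells of a type and less RNA per cell cannot be told apart.

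How many members were called depended on the scaling and on single libraries. When each library was scaled to the same FPKM total, which raised the median fold change of all tested genes by 0.138, 8 members fell and 6 rose. The same scaling took the calls over all genes to 3411 higher and 1120 lower (75.3% higher), in place of 1839 and 1551 (54.2% higher). Without knockout replicate 1, and likewise without knockout replicate 2, 6 members fell and none rose. Without wild-type replicate 1, 7 fell and 2 rose. When low genes were not filtered out, 7 fell and 2 rose. Mcoln1, Ctsd, Cst3 and Srgn fell under all 14 alternative settings and Ctsh under the 13 in which it was tested.

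**Figure D1:**
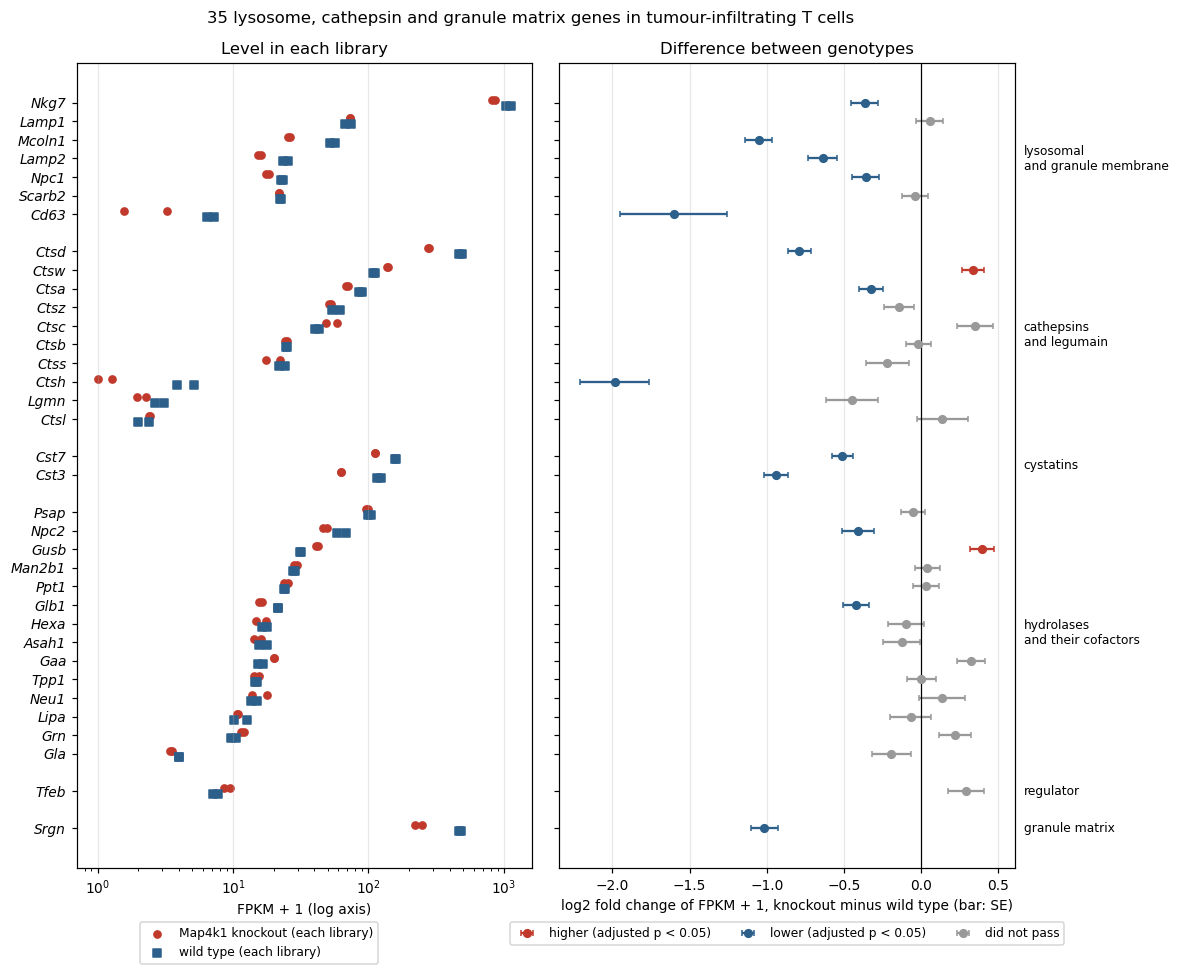
Level of each of the 35 genes in each library (left, FPKM + 1 on a log axis, knockout circles and wild-type squares) and log2 fold change, knockout minus wild type, with its standard error (right). The 13 genes that fell lie left of 0, from Ctsa at -0.32 to Ctsh at -1.98, and the 2 that rose, Ctsw and Gusb, lie at 0.33 and 0.39.

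Within a library the 35 genes together took 0.272% and 0.276% of all FPKM in the knockout, against 0.338% and 0.325% in wild type, a share that does not depend on the scale of the library. Their summed level was 2368 and 2424 FPKM in the knockout libraries and 3295 and 3164 FPKM in the wild-type libraries. Nkg7, Ctsd and Srgn were the 3 most abundant members in both genotypes and made up 82.3% of the difference between the mean sums. The summed level of the 14 hydrolases and cofactors was 349.7 and 353.1 FPKM in the knockout, against 368.1 and 354.7 FPKM in wild type. That of the 2 cystatins was 172.2 and 172.8 FPKM in the knockout, against 280.0 and 275.5 FPKM in wild type, without overlap.

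Of the 7 membrane proteins, 5 fell and none rose, 71.4% lower beside 13.0% of all tested genes. Mcoln1 encodes mucolipin 1, a channel that releases calcium and other cations from lysosomes. It was at 24.6 and 25.5 FPKM in the knockout libraries, against 51.0 and 55.3 FPKM in the wild-type libraries. The groups were well separated, and Mcoln1 (chr8:3500457-3515232, plus strand, GRCm38) had a log2 fold change of -1.05 (SE 0.09), past the threshold (limma adjusted p = 0.00281).

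Lamp2, a heavily glycosylated protein of the lysosomal membrane that also serves chaperone-mediated autophagy, was at 15.1 and 14.3 FPKM in the knockout and at 22.3 and 24.5 FPKM in wild type. Its groups did not overlap (log2 fold change -0.64, SE 0.09, limma adjusted p = 0.0106), though the adjusted p was as high as 0.0693 with a knockout library left out. Lamp1, its partner and the marker of degranulation, was at 72.8 and 72.1 FPKM in the knockout and at 66.3 and 73.4 FPKM in wild type, and it did not pass (limma adjusted p = 0.657). The ratio of Lamp1 to Lamp2 within a library was 4.83 and 5.05 in the knockout, against 2.968 and 2.996 in wild type.

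Cd63, a tetraspanin of late endosomes, lysosomes and secretory granules, was low, at 0.562 and 2.24 FPKM in the knockout and at 5.42 and 6.27 FPKM in wild type. The knockout libraries differed from each other by more than the wild-type ones did, and both lay under the wild-type ones (log2 fold change -1.60, SE 0.35, limma adjusted p = 0.0262). The fold change was between -2.13 and -1.08 when a single library was left out, and the adjusted p reached 0.0845 in those fits and 0.126 when low genes were not filtered out. Npc1, which exports cholesterol from lysosomes, was at 17.4 and 16.5 FPKM in the knockout and at 21.7 and 22.4 FPKM in wild type. It fell by 0.36 (SE 0.09, limma adjusted p = 0.0337), but its fold change was -0.21 with equal FPKM totals, and the adjusted p was up to 0.198 when a single library was left out.

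Nkg7, a granule membrane protein of cytotoxic cells that takes part in degranulation, had the highest level of all 35 genes. It was at 824 and 866 FPKM in the knockout, against 1139.9 and 1038 FPKM in wild type. The groups did not overlap and Nkg7 fell by 0.36 (SE 0.09, limma adjusted p = 0.0339), with an adjusted p of up to 0.227 over the alternatives. Its fold change was -0.14 under quantile normalization and -0.21 with equal FPKM totals. Scarb2, the receptor that carries glucocerebrosidase to lysosomes, was at 20.7 and 20.8 FPKM in the knockout and 21.2 and 21.5 FPKM in wild type and did not pass (limma adjusted p = 0.743).

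Tfeb itself was low, at 8.58 and 7.62 FPKM in the knockout libraries, against 6.80 and 6.08 FPKM in the wild-type libraries. Both knockout values were above both wild-type values, but the difference did not pass (log2 fold change 0.29, SE 0.12, limma adjusted p = 0.121). TFEB binds an E-box, CACGTG, often with a T before or an A after it, so RefSeq promoters (GRCm38.p6, 250 bases before to 50 after the start of transcription) were searched for CACGTG, which reads the same on both strands, and for the longer TCACGTG on either strand. Promoters were found for 30 of the 35 members, 36 promoters in all, and 9 of the 36 held CACGTG. Of all 32851 promoters of that length 7.15% held it, and of 10908 promoters of tested genes 10.3% did. The longer TCACGTG, each match of which contains CACGTG, was in 8 of the 36 member promoters (22.2%), in 3.77% of all promoters and in 6.18% of those of tested genes. The 9 promoters with CACGTG belonged to Ctsa, Ctsd, Mcoln1, Glb1, Lamp1, Gaa, Lgmn, Ctsl and Gla. Of these 9 genes 4 fell and 5 did not pass, and of the 21 members with a promoter but no CACGTG 7 fell, 1 rose and 13 did not pass. Ctsh, Ctsw, Asah1, Ctsb and Npc1 were not part of this search.

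The sequences of Mcoln1 and Ctsd, which fell, and of Lamp1 and Gaa, which did not pass, are shown because members with these sites differed in their calls. Each is written 5′ to 3′ on the strand of its gene and ends before the gene's first annotated base in GENCODE, with CACGTG in capitals. Later sites of Mcoln1 and Ctsd follow as 30-base windows.
Mcoln1, chr8:3500269-3500456, plus strand: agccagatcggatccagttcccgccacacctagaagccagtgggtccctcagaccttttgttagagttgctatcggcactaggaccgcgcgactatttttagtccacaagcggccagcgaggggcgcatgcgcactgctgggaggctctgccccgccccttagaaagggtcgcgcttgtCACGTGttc
Mcoln1, second site, chr8:3500462-3500491, plus strand: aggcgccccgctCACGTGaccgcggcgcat
Ctsd, chr7:142388039-142388077, minus strand: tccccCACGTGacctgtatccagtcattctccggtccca
Ctsd, second site, chr7:142387908-142387937, minus strand: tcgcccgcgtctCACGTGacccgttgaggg
Lamp1, chr8:13158911-13159160, plus strand: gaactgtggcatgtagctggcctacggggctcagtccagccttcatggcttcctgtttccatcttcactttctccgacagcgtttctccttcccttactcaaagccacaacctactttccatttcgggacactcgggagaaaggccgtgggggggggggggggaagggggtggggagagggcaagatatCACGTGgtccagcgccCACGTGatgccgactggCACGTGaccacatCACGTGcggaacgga
Gaa, chr11:119267713-119267886, plus strand: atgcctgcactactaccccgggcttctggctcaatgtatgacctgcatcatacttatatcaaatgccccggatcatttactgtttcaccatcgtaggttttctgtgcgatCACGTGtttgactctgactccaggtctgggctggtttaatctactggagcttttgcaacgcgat
Counted from the RefSeq start, the sites of Mcoln1 began at -71 and -45 and those of Ctsd at -245 and -98. Lamp1 held 4 sites, at -61, -45, -28 and -15, more than any other member, and its transcript was at 72.4 ± 0.511 FPKM in the knockout and 69.8 ± 5.02 FPKM in wild type (SD, n = 2 each). Gaa had 1 site. A match describes the letters of this window only and does not show binding.

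Of the 9 cathepsins and legumain, 3 fell, 1 rose and 6 did not pass. Ctsd (chr7:142375911-142388038, minus strand), the aspartic cathepsin and the most abundant protease of the list, was at 281 and 273 FPKM in the knockout libraries, against 490.5 and 469 FPKM in the wild-type libraries. The genotypes were far apart relative to the spread within them, and Ctsd fell by 0.79 (SE 0.07, limma adjusted p = 0.00408). Set against prosaposin (Psap), whose saposins it helps to release, the ratio of Ctsd to Psap was 2.86 and 2.87 in the knockout and 4.74 and 4.81 in wild type. Ctsa, the serine carboxypeptidase that protects beta-galactosidase and neuraminidase 1, was at 67.9 and 70.3 FPKM in the knockout, against 89.4 and 84.1 FPKM in wild type (log2 fold change -0.32, SE 0.08, limma adjusted p = 0.0342, up to 0.227 over the alternatives). With equal FPKM totals its fold change was -0.17.

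Ctsh, an aminopeptidase of the papain family, was listed at 0 in knockout replicate 1 and stood at 0.284 FPKM in knockout replicate 2, against 4.19 and 2.87 FPKM in wild type. It was at or near 0 in the knockout and low in wild type (log2 fold change -1.98, SE 0.22, limma adjusted p = 0.00617).

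Ctsw, a papain-family cathepsin found mainly in cytotoxic T cells and NK cells, moved the other way. It was at 138 and 137 FPKM in the knockout libraries and at 110.3 and 108 FPKM in the wild-type libraries. The groups were well separated, with a 1.26-fold higher mean in the knockout (log2 fold change 0.33, SE 0.07, limma adjusted p = 0.0248), but the adjusted p was as high as 0.184 with a knockout library left out. Part of Ctsw shares exonic bases with Fibp on the opposite strand, which was at 14.6 and 14.0 FPKM in the knockout and at 17.3 and 16.4 FPKM in wild type, and the strand setting of the counting is not given in the sources used here.

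Ctsc, the activator of progranzymes, was at 57.6 and 47.6 FPKM in the knockout and at 39.4 and 42.4 FPKM in wild type. Its groups did not overlap, but it did not pass (log2 fold change 0.35, SE 0.11, limma adjusted p = 0.0739). Over the alternatives its adjusted p ranged from 0.0239, with equal FPKM totals, to 0.375. Ctsb, the most studied cysteine cathepsin, was at 24.0 and 23.1 FPKM in the knockout and 23.9 and 23.7 FPKM in wild type (limma adjusted p = 0.877). Ctss, which trims the invariant chain in antigen-presenting cells, was at 16.5 and 21.4 FPKM in the knockout, against 23.1 and 21.1 FPKM in wild type (limma adjusted p = 0.286). Neither passed, and the 2 groups overlapped for both.

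Ctsz, a carboxypeptidase, was at 52.3 and 50.5 FPKM in the knockout, against 61.2 and 52.7 FPKM in wild type, and did not pass. Ctsl was at 1.43 and 1.38 FPKM in the knockout, against 1.00 and 1.39 FPKM in wild type, and legumain (Lgmn), an asparaginyl endopeptidase that processes other cathepsins, at 1.26 and 0.955 FPKM in the knockout, against 1.66 and 2.09 FPKM in wild type. Both were among the least abundant members and neither passed.

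Both cystatins, inhibitors of papain-family cathepsins, fell. Cst3 (chr2:148871722-148875692, minus strand), the secreted inhibitor cystatin C, was at 61.7 and 61.9 FPKM in the knockout libraries and at 124 and 115 FPKM in the wild-type libraries. Its level in the knockout was about 0.516 times that in wild type (log2 fold change -0.94, SE 0.08, limma adjusted p = 0.00302). Cst7 was at 110.5 and 111 FPKM in the knockout, against 156 and 160.1 FPKM in wild type. The groups did not overlap and Cst7 fell by 0.51 (SE 0.07, limma adjusted p = 0.00941), with an adjusted p of up to 0.0849 when a knockout library was left out.

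Ratios between a protease and an inhibitor of the same library do not depend on its scaling. These and the other ratios given here were chosen after the values were seen and are given as a description. Ctsc was 0.521 and 0.429 times Cst7 in the knockout, against 0.253 and 0.265 times in wild type. Ctsw was 1.25 and 1.24 times Cst7 in the knockout, against 0.707 and 0.674 times in wild type. Ctsb, which cystatin C inhibits, was 0.388 and 0.373 times Cst3 in the knockout, against 0.193 and 0.206 times in wild type. In each of these 3 ratios both knockout libraries lay above both wild-type libraries. That follows from the values above, since both inhibitors fell and none of the 3 proteases did, so the ratios add no separate result. Ctsh, a papain-family member that fell, was not among the pairs.

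**Figure D2:**
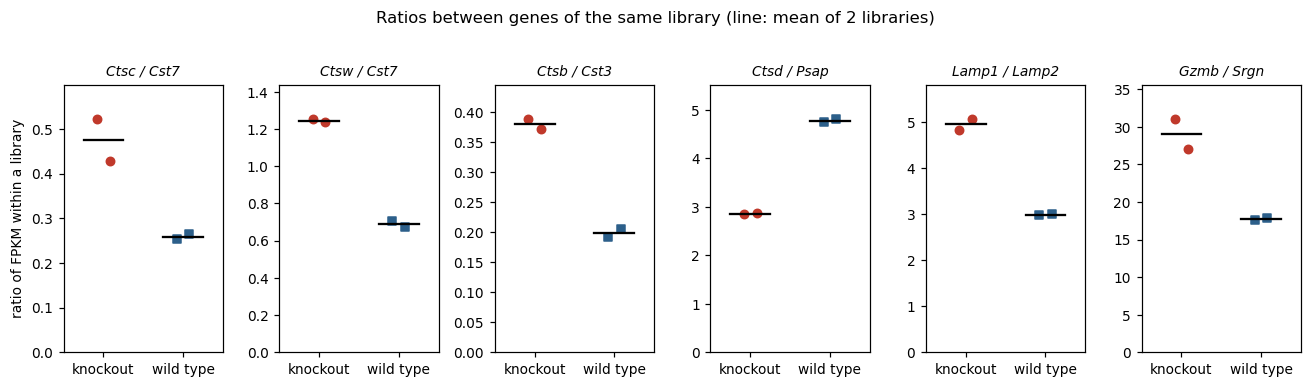
Ratios of FPKM between 2 genes of the same library for 6 pairs, with knockout circles on the left and wild-type squares on the right of each panel and a line at the mean of 2 libraries. The knockout libraries were higher in 5 pairs, such as Ctsw to Cst7 at 1.25 and 1.24 in the knockout against 0.707 and 0.674 in wild type, and lower for Ctsd to Psap. Gzmb did not pass, and the granule cargo genes that fell are not shown.

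Serglycin (Srgn, chr10:62493833-62527451, minus strand), the proteoglycan on which granzymes and perforin are packed, was the third most abundant member. It was at 222 and 246 FPKM in the knockout libraries and at 467 and 479 FPKM in the wild-type libraries. Both knockout values were well under both wild-type values, with a mean of 0.495 times that of wild type (log2 fold change -1.01, SE 0.08, limma adjusted p = 0.0031). Gzmb, the most abundant granzyme, was at 6865 and 6671 FPKM in the knockout, against 8251 and 8573 FPKM in wild type. It did not pass (limma adjusted p = 0.0543). The ratio of Gzmb to Srgn was 31.0 and 27.1 in the knockout, against 17.7 and 17.9 in wild type. Gzmb does not stand for the granule cargo here. The 7 cargo genes that fell had knockout means of 0.290 times those of wild type or less. They fell further than Srgn, so their ratios to Srgn go the other way.

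Of the 14 hydrolases and their cofactors, 2 fell, 1 rose and 11 did not pass. These shares were 14.3% lower and 7.14% higher, beside 13.0% and 15.4% of all tested genes. The 11 had mean levels of 2.48 FPKM (Gla) to 96.8 FPKM (Psap) in the knockout and 2.97 to 100.5 FPKM in wild type, and log2 fold changes of -0.19 to 0.32. In 8 of them the values of the genotypes overlapped. Glb1, the beta-galactosidase that trims gangliosides, was at 15.4 and 14.7 FPKM in the knockout and at 20.6 and 20.4 FPKM in wild type (log2 fold change -0.42, SE 0.09, limma adjusted p = 0.023, up to 0.148 over the alternatives). Npc2, which hands cholesterol to NPC1, was at 45.2 and 48.8 FPKM in the knockout, against 67.7 and 58.0 FPKM in wild type. Both genes had no overlap between genotypes, and Npc2 passed narrowly (log2 fold change -0.41, SE 0.10, limma adjusted p = 0.04, up to 0.217 over the alternatives). With equal FPKM totals the fold changes were -0.27 for Glb1 and -0.25 for Npc2.

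Gusb, the beta-glucuronidase, was at 41.6 and 39.7 FPKM in the knockout libraries and at 31.0 and 30.4 FPKM in the wild-type libraries. It rose by 0.39 (SE 0.08, limma adjusted p = 0.022), with an adjusted p of up to 0.176 when a knockout library was left out. Gaa, which degrades lysosomal glycogen, was at 19.0 and 18.9 FPKM in the knockout and at 14.3 and 15.7 FPKM in wild type. It had no overlap between genotypes and lay just outside the threshold (limma adjusted p = 0.0523). Progranulin (Grn), a precursor cleaved in lysosomes, was at 10.5 and 11.1 FPKM in the knockout, against 8.72 and 9.60 FPKM in wild type (limma adjusted p = 0.163).

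None of the remaining hydrolases passed, and the values of the 2 genotypes overlapped for all of them but Gla. Psap was at 98.3 and 95.3 FPKM in the knockout and at 103 and 97.6 FPKM in wild type. The peptidase gene Tpp1 was at 14.5 and 13.3 FPKM in the knockout, against 14.1 and 13.6 FPKM in wild type, and the thioesterase gene Ppt1 at 24.4 and 22.8 FPKM in the knockout, against 23.0 and 23.2 FPKM in wild type. Man2b1, an alpha-mannosidase, was at 28.7 and 27.4 FPKM in the knockout and 27.7 and 26.8 FPKM in wild type. Hexa, a subunit of hexosaminidase, was at 13.8 and 16.4 FPKM in the knockout, against 16.9 and 15.4 FPKM in wild type. Neu1, a sialidase, was at 12.8 and 16.9 FPKM in the knockout, against 14.1 and 12.7 FPKM in wild type, with more distance between the 2 knockout libraries than between the genotypes. Asah1, the acid ceramidase, was at 13.2 and 15.2 FPKM in the knockout and 14.5 and 16.7 FPKM in wild type. Lipa, the lysosomal lipase, was at 9.74 and 9.90 FPKM in the knockout, against 9.16 and 11.6 FPKM in wild type, and Gla, the alpha-galactosidase, at 2.41 and 2.55 FPKM in the knockout, against 2.97 in both wild-type libraries.

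Other genes of the same compartments were read from 9 lists chosen by function. Of 17 vacuolar ATPase genes, whose proton pump acidifies the lysosome, 7 fell and 1 rose, 41.2% lower beside 13.0% of all tested genes. With equal FPKM totals 5 fell and 2 rose. Without knockout replicate 1, and likewise without knockout replicate 2, 1 fell and none rose, and 2 fell when low genes were not filtered out. The falls included 4 of 7 genes of the membrane sector V0 and 3 of 8 of the catalytic sector V1. Atp6v0b was at 75.1 and 81.8 FPKM in the knockout, against 131 and 134 FPKM in wild type (log2 fold change -0.75, SE 0.08, limma adjusted p = 0.00533). Atp6v1f was at 155 and 163 FPKM in the knockout, against 226 and 224 FPKM in wild type, and Atp6v0d1 at 27.4 and 27.3 FPKM in the knockout, against 38.7 and 43.6 FPKM in wild type. Their falls were -0.50 and -0.57, and both calls were lost when a knockout library was left out. The median log2 fold change of the 17 genes was -0.27.

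Among 27 further lysosomal hydrolases 4 fell, 2 rose and 21 did not pass, a share of 14.8% lower beside 13.0% of all tested genes. None fell when either knockout library was left out, and with equal FPKM totals 2 fell and 4 rose. Arsb and Scpep1, a sulfatase and a carboxypeptidase, rose. Arsb was at 34.4 and 33.5 FPKM in the knockout, against 20.8 and 20.5 FPKM in wild type (log2 fold change 0.69, SE 0.08, limma adjusted p = 0.00656). Scpep1 was at 30.7 and 33.8 FPKM in the knockout, against 19.2 and 21.6 FPKM in wild type, and its call was lost when either knockout library was left out (limma adjusted p up to 0.0779). Of 21 tested genes of other lysosomal membrane proteins 2 fell and 1 rose, against 1 and none when either knockout library was left out and 1 and 4 with equal FPKM totals. With all libraries the shares of this list were 9.52% lower and 4.76% higher, beside 13.0% and 15.4% of all tested genes. Slc15a3, a peptide transporter, was at 0.170 and 0.185 FPKM in the knockout, against 2.89 and 1.94 FPKM in wild type. Laptm4a was at 27.3 and 29.2 FPKM in the knockout, against 35.9 and 39.0 FPKM in wild type. The cation channel gene Tpcn1, which rose, was at 14.7 and 13.1 FPKM in the knockout, against 10.9 and 9.48 FPKM in wild type. Slc15a3 passed the filter through the wild-type libraries alone. Tpcn1 was at a limma adjusted p of 0.0499, which ranged up to 0.268 over the alternatives and was above the threshold in each fit without 1 library.

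Only 4 of the 11 further cathepsin and cystatin genes were tested, since the others did not reach 1 FPKM in at least 2 libraries. Of those 4 genes 3 fell, 75.0% lower beside 13.0% of all tested genes. Napsa, an aspartic protease of the cathepsin D family, was at 1.44 and 1.59 FPKM in the knockout, against 9.67 and 6.38 FPKM in wild type (log2 fold change -1.82, SE 0.20, limma adjusted p = 0.00572). Stfa3, a stefin, was listed at 0 in both knockout libraries and at 1.95 and 1.60 FPKM in wild type, and it passed the filter through the wild-type libraries alone. Cstb, the cytosolic cystatin B, was at 129 and 120.3 FPKM in the knockout, against 156 and 178 FPKM in wild type (log2 fold change -0.41, SE 0.10, limma adjusted p = 0.031, up to 0.169 over the alternatives).

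Of 21 tested autophagy genes 6 fell and none rose, 28.6% lower beside 13.0% of all tested genes. There were 2 falls without knockout replicate 1, 3 without knockout replicate 2 and 3 without wild-type replicate 1, and with equal FPKM totals 4 fell and 2 rose. Sqstm1, which encodes the cargo receptor p62, was at 79.4 and 78.0 FPKM in the knockout, against 200.2 and 166 FPKM in wild type (log2 fold change -1.20, SE 0.11, limma adjusted p = 0.00368). Gabarap, a ubiquitin-like protein of the autophagosome membrane, was at 64.7 and 66.1 FPKM in the knockout, against 107 and 115 FPKM in wild type. Its relative Gabarapl2 was at 27.3 and 28.6 FPKM in the knockout, against 38.3 and 38.7 FPKM in wild type. Of 20 tested genes of enzyme sorting and fusion 2 fell, Rab7 and Vps39, and none rose. Both shares were under those of all tested genes, 13.0% lower and 15.4% higher. Rab7, the GTPase of late endosomes, was at 129 and 126 FPKM in the knockout, against 237 and 187 FPKM in wild type. The tethering gene Vps39 was at 16.5 and 16.7 FPKM in the knockout, against 37.3 and 23.3 FPKM in wild type. Neither call held when a knockout library was left out, 1 of the list fell and 3 rose with equal FPKM totals, and the fold change of Vps39 was -0.79 with all libraries and -0.47 without wild-type replicate 1. Of 16 tested genes of TFEB's relatives and of mTORC1 at the lysosome 1 fell and 2 rose. These shares were 6.25% lower and 12.5% higher, beside 13.0% and 15.4% of all tested genes. Lamtor2, a Ragulator subunit, was at 88.6 and 91.1 FPKM in the knockout, against 128 and 113 FPKM in wild type. Rptor, a component of mTORC1, was at 18.8 and 15.9 FPKM in the knockout, against 12.2 and 12.6 FPKM in wild type. Tsc1, which restrains mTORC1, was at 7.14 and 6.86 FPKM in the knockout, against 4.44 and 5.31 FPKM in wild type. None of the list was called when either knockout library was left out, and neither Rptor nor Tsc1 was called without wild-type replicate 1.

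Of 13 tested genes of granule exocytosis 4 fell and none rose, 30.8% lower beside 13.0% of all tested genes. With equal FPKM totals 3 fell and 2 rose, and 2 fell when low genes were not filtered out. None fell without knockout replicate 1, 1 fell without knockout replicate 2, and 6 fell under median-of-ratios scaling. Stx11, a syntaxin needed for granule fusion, was at 6.64 and 6.40 FPKM in the knockout, against 11.6 in both wild-type libraries (log2 fold change -0.74, SE 0.10, limma adjusted p = 0.00797). Sytl2, which docks granules, was at 32.5 and 30.9 FPKM in the knockout, against 48.5 and 46.2 FPKM in wild type, and Vamp8, a vesicle SNARE, at 41.8 and 45.6 FPKM in the knockout, against 80.8 and 66.1 FPKM in wild type. The calls of Stx11 and Sytl2 were lost when either knockout library was left out. Of 10 genes of granule cargo 7 fell and none rose, 70.0% lower beside 13.0% of all tested genes. The median log2 fold change of the list was -2.72. Gzmd was at 14.7 and 12.2 FPKM in the knockout, against 1259 and 1403 FPKM in wild type. Gzme was at 7.01 and 5.54 FPKM in the knockout, against 620.2 and 657 FPKM in wild type, and Gzmg at 1.10 and 0.866 FPKM in the knockout, against 166 and 179 FPKM in wild type. These granzyme genes are near-identical neighbours, so how shared reads were divided among them is uncertain.

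**Figure D3:**
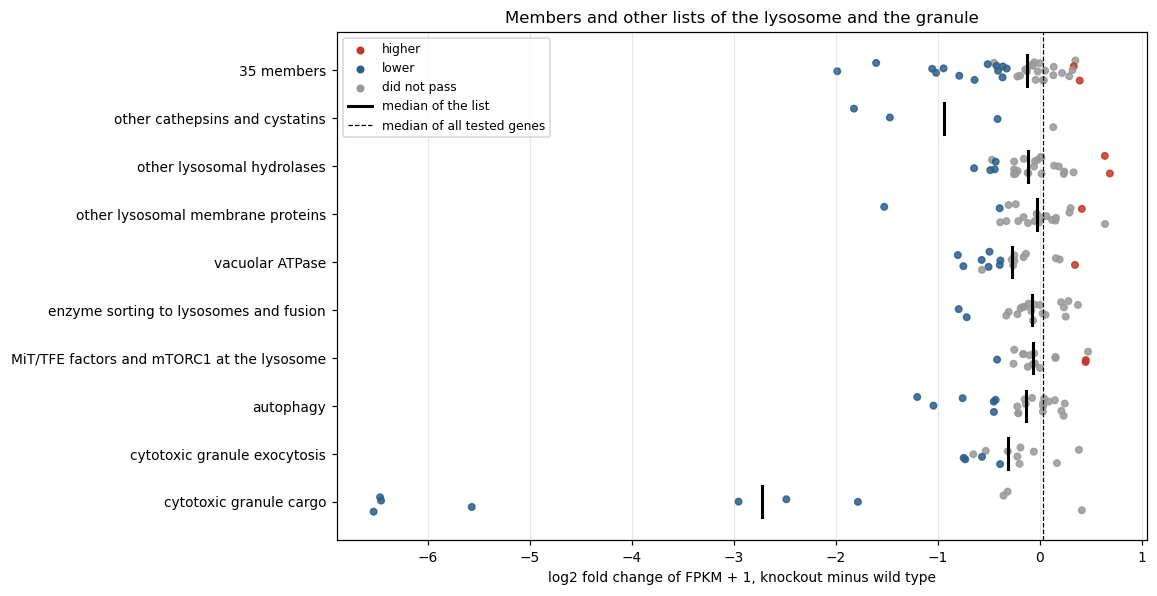
Log2 fold change, knockout minus wild type, of the 35 members and of the tested genes of 9 other lists, each point a gene coloured by its call, with a bar at the list's median and a dashed line at the median of all tested genes (0.04). The members' median was -0.12, that of the vacuolar ATPase -0.27 and that of the granule cargo -2.72.

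The T cell label was checked against markers, with lists of other cell types that a tumour sample could hold. The 9 T cell markers summed to 1496 and 1481 FPKM in the knockout and 1436 and 1490 FPKM in wild type, with Cd3g, Cd2 and Cd3d the most abundant. Within that sum Cd2 and Cd5 rose, by 0.54 and 0.52 (limma adjusted p = 0.0103 and 0.019), and Cd3d fell by 0.37 (limma adjusted p = 0.0201). Of 13 macrophage and monocyte markers, cells rich in cathepsins, 2 reached 1 FPKM in any library, Apoe and Cd68. Lyz2, C1qb, C1qc and Adgre1 were at most 0.0596 FPKM in every library, and the 12 markers with a row summed to 9.32 and 9.15 FPKM in the knockout, against 7.43 and 8.90 FPKM in wild type. Cd14, the third most abundant of the list, was at 0.0678 and 0 FPKM in the knockout, against 0.563 and 0.301 FPKM in wild type, below the filter. The part of these cells in the members' falls was not tested.

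Markers of dendritic cells and of mast cells and basophils, cells that also express members such as Cst3, Ctsh, Cd63 and Srgn, summed to less in the knockout, and 2 genes of each list fell, of which H2-Aa and Mcpt8 passed the filter through the wild-type libraries alone. The 7 dendritic cell markers with a row summed to 40.6 and 44.1 FPKM in the knockout, against 74.1 and 64.3 FPKM in wild type. Most of that sum was Batf3, at 38.5 and 42.4 FPKM in the knockout, against 52.4 and 43.4 FPKM in wild type, which did not pass. Cd74 was at 1.63 and 0.989 FPKM in the knockout, against 16.6 and 14.8 FPKM in wild type, and H2-Aa at 0.102 and 0.0494 FPKM in the knockout, against 1.97 and 2.72 FPKM in wild type, and both fell. Flt3, Zbtb46 and Xcr1 were at 0.327 FPKM or less in the knockout, against 0.821 to 1.31 FPKM in wild type. The 3 mast cell and basophil markers with a row summed to 1.51 and 0.778 FPKM in the knockout and to 11.2 and 11.1 FPKM in wild type. Of these Mcpt8 was at 0.0752 and 0.0727 FPKM in the knockout, against 5.51 and 5.88 FPKM in wild type, and Kit at 1.40 and 0.633 FPKM in the knockout, against 5.58 and 5.05 FPKM in wild type, while Cpa3 stayed at or under 0.166 FPKM. The part of these cells in the falls of Cst3, Ctsh, Cd63 and Srgn was not tested.

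Each of the other lists was low in sum or led by 1 gene. The 4 neutrophil markers with a row summed to 1.39 and 1.72 FPKM in the knockout, against 2.44 in both wild-type libraries, mostly Ly6g, with Mpo listed at 0 in both knockout libraries. The 3 B cell markers summed to 98.4 and 90.7 FPKM in the knockout, against 47.5 and 50.5 FPKM in wild type. Nearly all of that was Ighm, which rose (log2 fold change 0.99, SE 0.08, limma adjusted p = 0.00318). Cd79b was at 4.81 and 4.52 FPKM in the knockout, against 3.93 and 4.49 FPKM in wild type, and did not pass, while Cd79a was at 0.149 FPKM or less. The 3 NK cell markers summed to 78.2 and 81.9 FPKM in the knockout, against 104.6 and 94.1 FPKM in wild type, of which Eomes, also a T cell factor, was the largest part. Klrb1c was at 3.95 and 3.81 FPKM in the knockout, against 14.7 and 14.4 FPKM in wild type, and Ncr1 was listed at 0 in both knockout libraries and was at 0.0767 and 0.0821 FPKM in wild type. The 11 tumour and stroma markers summed to 15.7 and 15.4 FPKM in the knockout, against 20.6 and 27.7 FPKM in wild type, led by Pecam1. Epcam, the gene of that list that fell, was at 2.02 and 1.86 FPKM in the knockout, against 6.64 and 6.94 FPKM in wild type (log2 fold change -1.41, SE 0.12, limma adjusted p = 0.00318). The part of these cells in the falls of Nkg7, Srgn and other members was not tested.

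**Figure D4:**
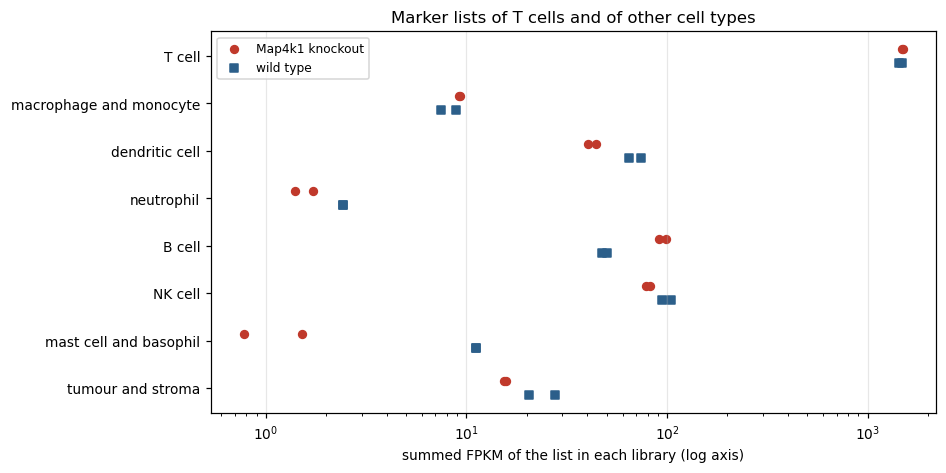
Summed FPKM of each marker list in each library on a log axis, with knockout circles above wild-type squares. T cell markers summed to 1436 to 1496 FPKM in every library, macrophage markers to 7.43 to 9.32 FPKM, and mast cell and basophil markers to 1.51 and 0.778 FPKM in the knockout against 11.2 and 11.1 FPKM in wild type.

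Of the 15 calls, 5 held in each alternative setting that could be run and none changed sign. The 10 others kept their direction and lost the threshold in at least 1 setting. Of the 20 members that did not pass, 4 gained a call somewhere: Ctsc, Gaa, Grn and Tfeb, all in the direction of a rise. For Ctsc, Grn and Tfeb this was only with equal FPKM totals, a scaling that raises every fold change by construction. Gaa gained a call there and also with the 5 FPKM filter. Exons of 12 members share bases with another gene. For Npc1 that gene was Rmc1, at 22.9 and 25.7 FPKM in the knockout and at 27.0 and 32.2 FPKM in wild type, and for Glb1 it was Tmppe, at 9.61 and 9.23 FPKM in the knockout, against 7.62 and 8.09 FPKM in wild type. Ctsd shares bases with Gm49369, a protein-coding gene on the same strand for which no value was found. Ctsa shares bases with Neurl2 and Pltp on the opposite strand, which were at 4.09 FPKM or less in every library. How the counting divided such reads is not given in the sources used here, so these values are uncertain.

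**Figure D5:**
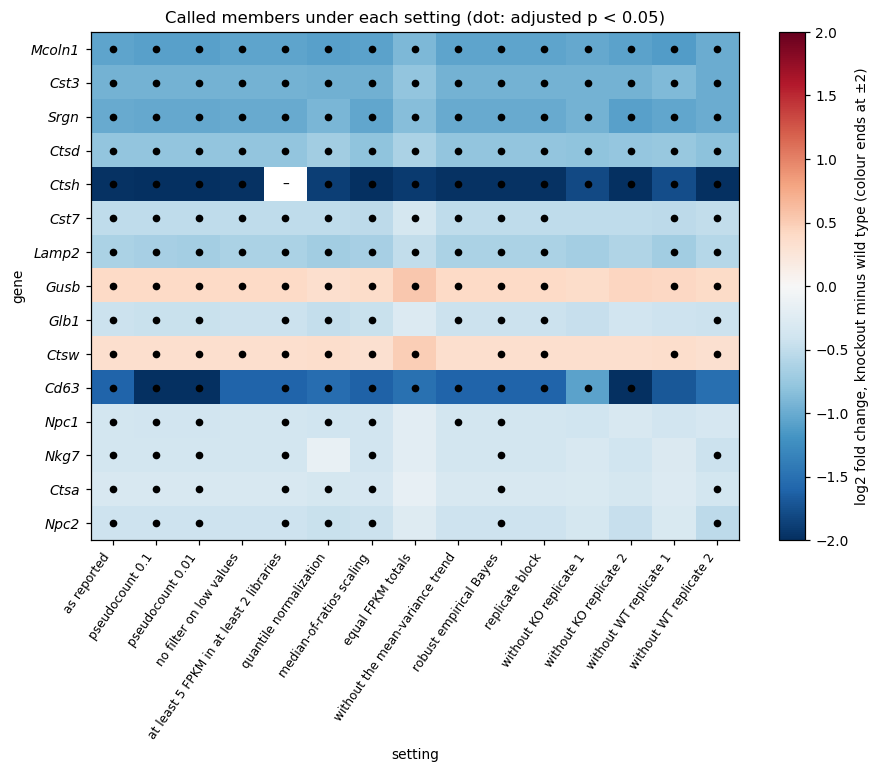
Log2 fold change, knockout minus wild type, of the 15 members that passed, under each setting, with a dot where the adjusted p was under 0.05 and a dash where the gene was not tested. Mcoln1, Cst3, Srgn, Ctsd and Ctsh kept their dots, and the calls of Npc1, Nkg7, Ctsa and Npc2 were lost most often.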

How the data were processed

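RNA-seq of tumour-infiltrating T cells was deposited as a single table of FPKM values, which the authors made with HISAT and Cuffnorm on GRCm38, per the submitters' processing notes. Tool versions, gene models, strandedness and how libraries were scaled are not given in the sources used here, and no counts were used. Ensembl identifiers were matched to symbols with GENCODE M21 for 21028 rows, and 118 had no match.

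Genes reaching 1 FPKM in 2 or more libraries were tested as log2(FPKM + 1) with limma 3.58.1 in R 4.3.3, with a mean-variance trend and Benjamini-Hochberg adjustment over 11947 genes at 0.05, genotype being the only term. The procedure was tested on simulated data. Alternatives were other pseudocounts, no or a higher filter, 3 scalings, no trend, robust variances, a replicate block and leaving out each library. The depth scale was read from the steps between low values, of which 89.9% to 91.2% came within 0.1 of whole fragments, and precision rests on the 2 libraries per genotype. Same-numbered libraries did not deviate together (correlation -0.0321), so the numbers were not taken as pairs. The members and lists were chosen with earlier results of these data known. All 35 members are named, with up to 3 called genes of lowest p per other list (2 of lowest p where none was called), Map4k1 and most of the 3 most abundant genes per marker list. A gene of these lists is not reported here. Other genes were named after their values were seen. Promoters came from RefSeq.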

Additional observations from a re-analysis of the deposited data

How the results depend on the processing

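Over all genes, 1839 rose and 1551 fell. Without the filter these counts were 609 and 622, with equal FPKM totals 3411 rose, and with a single library left out 189 to 1693 rose and 390 to 1542 fell, lowest without knockout replicate 1. Of the members 2 rose and 13 fell. Without the filter 7 fell, with equal FPKM totals 6 rose and 8 fell, without the trend 1 rose, and with a library left out 0 to 3 rose and 6 to 11 fell. With the replicate block 1453 genes rose and 1348 fell, and of the members 2 rose and 9 fell. The replicate numbers share no stated source. No called member changed sign. Signs turned only for members that had not passed. With equal FPKM totals the log2 fold changes were 0.11 for Scarb2, 0.13 for Ctsb, 0.012 for Ctsz, 0.049 for Hexa, 0.022 for Asah1, 0.076 for Lipa and 0.10 for Psap. With quantile normalization they were -0.019 for Man2b1, -0.045 for Tpp1 and -0.018 for Ppt1, and with median-of-ratios scaling -0.018 for Tpp1. With a library left out they ranged between -0.018 and 0.13 for Lamp1, -0.046 and 0.0073 for Ctsb, -0.22 and 0.023 for Hexa, -0.051 and 0.32 for Neu1, -0.22 and 0.090 for Lipa, -0.056 and 0.058 for Tpp1, and -0.017 and 0.078 for Ppt1. Equal totals raise every fold change by construction, and the cause of the other turns was not tested. Ctsh, Ctsl, Lgmn and Gla were not tested under the 5 FPKM filter. Counting error weighs most on the lowest levels, such as Ctsh at 0 and 0.284 FPKM in the knockout.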
